A study of Drosophila melanogaster with 3 samples.

Results

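The genes described are 10 Drosophila melanogaster chaperone and heat shock genes, chosen by name as cytosolic and mitochondrial chaperones with their stress regulator: DnaJ-1, Hsf, Hsc70-4, Hsc70-5, Hsp83, Hsp110, Hsp60A, Hsp22, Hsp26 and Hsp27. They are 10 of the 13945 protein-coding genes annotated on the 6 main chromosome arms. Chromatin immunoprecipitation followed by sequencing (ChIP-seq) mapped where the protein CG2116 sits on the genome. The animals were whole embryos of both sexes, 0 to 24 h old, of 1 transgenic line whose CG2116 carries eGFP at its C terminus, and an antibody against GFP was used. All 3 libraries, replicates 1, 2 and 4, came from this line, so there was no second genotype, treatment or stage to compare. The peak lists hold no transcript levels, so the tissue label could not be checked against marker genes. In whole embryos, strong binding in few cells and weak binding in many cells cannot be told apart.

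Chaperones bind unfolded protein and help it fold, assemble or cross membranes. In flies, cognate members such as Hsc70-4 are made in most cells at all times, whereas the small heat shock proteins are strongly induced by heat and also appear at set points of development. The heat shock factor Hsf is the transcription factor that drives the stress response by binding inverted repeats of a GAA unit in front of heat shock genes. Here Hsc70-4, Hsc70-5, Hsp83, Hsp110 and Hsp60A were taken as the constitutive class, although Hsp83 is also heat inducible, and Hsp22, Hsp26 and Hsp27 as the stress-induced small heat shock class. DnaJ-1 and Hsf were kept apart from both.

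A peak is a stretch of chromatin enriched in the immunoprecipitate, and its summit is the base where enrichment was highest. The sequence around the summits of 7 of the genes is shown. The stretches of Hsp60A and Hsp27 hold none of the elements marked below, and Hsc70-5 is not shown although its second summit has a GAANNTTC. Each is written 5′ to 3′ on the strand of the gene, from the dm6 (Release 6) assembly as held by RefSeq. Capitals mark TATCGATA, the core of the DNA replication-related element of flies, and GAANNTTC or TTCNNGAA, both spacings of an inverted pair of GAA units. The stretches are chr3L:5752179-5752290 (minus strand) for DnaJ-1, chr3R:15242510-15242577 for Hsc70-4, chr3L:3192751-3192814 and chr3L:3193137-3193166 for Hsp83, chr3L:14036891-14036983 for Hsp110, chrX:11108288-11108328 for Hsp60A, chr3L:9377528-9377663 (minus strand) for Hsp26 and chr3L:9383899-9383939 for Hsp27. The second Hsp83 stretch lies in its 5′ untranslated region, the end of the DnaJ-1 stretch, from the start base on, lies inside its transcript, and the others lie between genes.
DnaJ-1: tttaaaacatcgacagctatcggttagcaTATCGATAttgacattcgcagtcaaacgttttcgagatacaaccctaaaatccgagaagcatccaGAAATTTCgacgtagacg
Hsp110: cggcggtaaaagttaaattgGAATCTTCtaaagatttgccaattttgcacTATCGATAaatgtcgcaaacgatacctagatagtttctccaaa
Hsp83 upstream summit: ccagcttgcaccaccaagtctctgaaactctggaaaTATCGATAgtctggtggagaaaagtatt
Hsp83 untranslated region: agaagcctctaGAAGTTTCtagagacttcc
Hsc70-4: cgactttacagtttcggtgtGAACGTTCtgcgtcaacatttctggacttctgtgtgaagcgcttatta
Hsp26: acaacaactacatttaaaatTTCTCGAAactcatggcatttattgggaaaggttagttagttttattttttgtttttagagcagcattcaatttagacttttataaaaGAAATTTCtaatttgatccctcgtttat
Hsp60A: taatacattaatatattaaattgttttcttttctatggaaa
Hsp27: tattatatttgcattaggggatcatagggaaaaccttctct
In the DnaJ-1, Hsp110 and upstream Hsp83 stretches, TATCGATA stands 9, 15 and 16 bp from the summit.

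For each gene, peaks were taken whose summit lay within 500 bp of any annotated transcription start, and the strongest was kept. The IDR list holds the 7137 peaks that the authors kept by the irreproducible discovery rate, which asks whether peaks rank alike between replicates. The pooled list and each replicate list are relaxed lists of 30000 peaks that also contain background, so a signal near the list median is weak. Signal is the enrichment value that the authors' software gave to a peak, and it was divided by the median of its own list (relative signal), 297.0 in the IDR list, 66.7 in the pooled list and 18.8, 24.4 and 32.4 in replicates 1, 2 and 4.

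CG2116 peaks were found at nearly all of the chaperone genes. An IDR summit lay within 500 bp of a start of 9 of the 10 genes, against 42.6% of all protein-coding genes, and Hsp22 was the one without. In the pooled list all 10 had a summit, against 60.4% of all genes, and 10 also had one in each of the 3 replicates, against 51.4%. All 5 constitutive genes and 2 of the 3 small heat shock genes had an IDR summit. No test was made of these counts, because the genes were chosen with earlier results of these data known.

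Signal at these genes ran from among the strongest in the genome to near the median of relaxed lists that also contain background. Over the 7172 protein-coding genes with a summit in all 3 replicates, the mean relative signal had a median of 4.57 and quartiles of 2.53 and 8.0. Of the 10 chaperone genes, 7 stood above that median and 6 above the upper quartile. DnaJ-1 and Hsc70-4 were far above the rest, and Hsp22 and Hsf were below the lower quartile. Among the 9 genes with an IDR summit, 7 exceeded the median of 1.37 over the 5941 genes so bound, the exceptions being Hsp26 and Hsf.

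**Figure D1:**
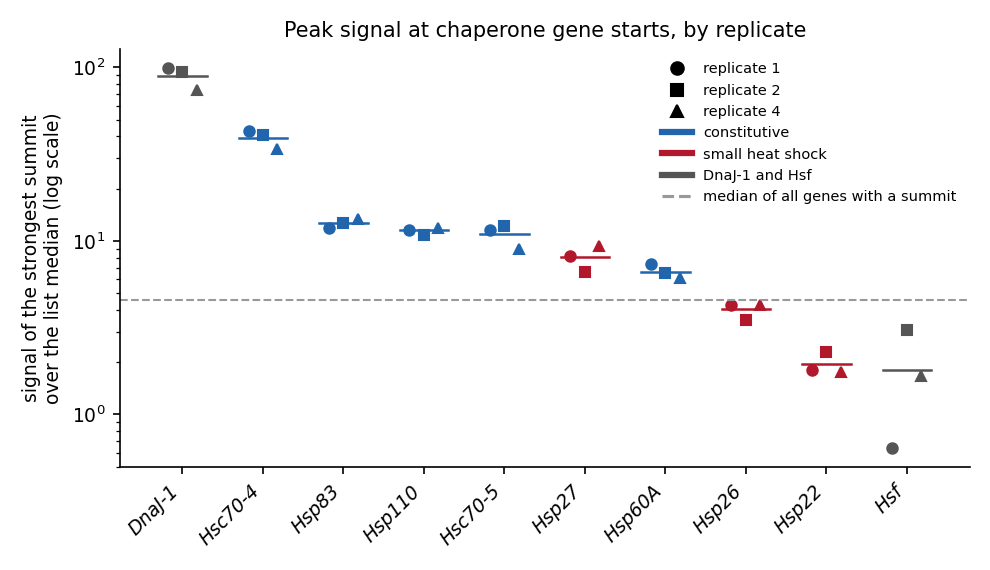
Relative signal (strongest summit within 500 bp of a start, divided by the list median, log axis) of each gene in replicates 1, 2 and 4, with a bar at the mean; the dashed line is the median of 4.57 over all genes with a summit in all 3 replicates. DnaJ-1 and Hsc70-4 stand apart at the top. Hsp26, Hsp22 and Hsf lie under the line in every replicate, and the constitutive Hsp60A lies beside the small heat shock gene Hsp27.

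Hsc70-4 encodes the main cognate Hsp70 of the cytosol, which folds new proteins and uncoats clathrin vesicles (FBgn0266599, dm6 chr3R:15242687-15246614, plus strand). Its relative signal was 42.9, 40.7 and 33.8 in replicates 1, 2 and 4, which gives 39.1 ± 4.74 (SD, n = 3). This was the highest of the constitutive class, above Hsp83 by 3.63, 3.19 and 2.55 times, and the replicate ranges of these genes did not overlap. The gene stood at position 301 of 7172, within the top 4.20%. Its IDR peak spanned 15242126 to 15242775, with a summit 130 bp upstream of the gene's first start and a relative signal of 9.67, rank 220. The replicate summits agreed within 3 bp, the tightest of the 10 genes, and the GAANNTTC of the printed stretch lies 20 bp upstream of the summit. The same summit lay 321 bp upstream of tefu, the fly ATM kinase gene, which points the other way, so the peak cannot be assigned to one gene.

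Hsp83 encodes the cytosolic Hsp90, which matures kinases and steroid receptors (FBgn0001233, dm6 chr3L:3192969-3197059, plus strand). Relative signal at Hsp83 was 11.8, 12.7 and 13.3, or 12.6 ± 0.726 (SD, n = 3), with little spread. Hsp83 has annotated starts at 3192969 and 3193216 and 2 IDR summits. The stronger, at 3193104 with a relative signal of 2.84 and rank 776, lay 135 bp inside the first start and 112 bp upstream of the second. The weaker, at 3192771 with 1.92 and rank 1451, lay 198 bp upstream of the first start and 280 bp upstream of the divergent gene CG14965. TATCGATA stands beside the weaker summit, while the GAANNTTC stands 44 bp downstream of the stronger, 68 to 61 bp before the second start. The replicate summits lay at 103 and 44 bp after the first start in replicates 1 and 2 and 101 bp before the second in replicate 4, all between both starts. The weaker site had no separate summit in replicates 1 and 2, and in replicate 4 the only other summit lay 434 bp upstream, so the split into 2 peaks rests on the pooled data.

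Hsp110 encodes a large Hsp70 relative that serves as nucleotide exchange factor for Hsp70 (FBgn0026418, dm6 chr3L:14037019-14043686, plus strand). The relative signal reached 11.6, 10.8 and 11.9, or 11.5 ± 0.559 (SD, n = 3). At 4.88% of the mean, its SD was the smallest of the 10 genes, where all genes with a summit in all 3 replicates had a median of 18.3%. The IDR summit stood at 14036963, 56 bp upstream, with a relative signal of 2.89 and rank 754. The replicate summits were 56, 61 and 58 bp upstream. TATCGATA lay 78 to 71 bp and GAANNTTC 108 to 101 bp upstream of the start, both upstream of the summit. An antisense noncoding gene, asRNA:CR42871, starts 127 bp from the same summit.

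Hsc70-5 encodes the mitochondrial Hsp70, which pulls proteins through the inner membrane (FBgn0001220, dm6 chr2R:14252598-14256192, minus strand). In replicates 1, 2 and 4 the relative signal was 11.6, 12.1 and 8.98, or 10.9 ± 1.68 (SD, n = 3). Replicate 4 was the lowest, and the ranges of Hsc70-5 and Hsp110 overlapped, with Hsp110 higher in 1 of the 3 replicates. The stronger of its 2 IDR summits lay 51 bp upstream of the start (relative signal 2.67, rank 864) and a TATAAA overlaps it. The second lay 253 bp upstream (1.07, rank 3271) and 48 bp upstream of the divergent gene CG8531, whose start is thus closer to it. In replicates 1, 2 and 4 this second site had relative signals of 7.36, 6.61 and 3.02, below the first site each time.

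Hsp60A encodes the mitochondrial chaperonin that encloses proteins for folding (FBgn0015245, dm6 chrX:11108482-11112308, plus strand). Its relative signal was 7.34, 6.52 and 6.09, or 6.65 ± 0.633 (SD, n = 3). It was the lowest of the constitutive class in each replicate, and Hsc70-5, the other mitochondrial member, was 1.59, 1.86 and 1.47 times higher with no overlap of the ranges. The strongest IDR summit lay 174 bp upstream (relative signal 1.64, rank 1827), in an AT-rich stretch that holds none of the capitalised elements. A second IDR summit, 27 bp inside the transcript in the 5′ untranslated region, reached 0.565 and rank 6267. GGTCACAC, the core of the promoter element called Motif 1, stands 12 to 5 bp before the start.

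DnaJ-1 encodes the cytosolic J-domain protein that hands unfolded protein to Hsp70, and it is itself heat inducible in flies (FBgn0263106, dm6 chr3L:5750029-5752189, minus strand). Relative signal here was 98.8, 93.4 and 73.6, or 88.6 ± 13.3 (SD, n = 3). This was the strongest of the 10 genes in every replicate, 2.30, 2.30 and 2.17 times that of Hsc70-4, with no overlap. Its IDR peak was also the widest, 847 bp from 5751916 to 5752762, with a summit 81 bp upstream, a relative signal of 21.8 and rank 129. The replicate summits lay 74, 87 and 75 bp upstream, which is 2, 15 and 3 bp from the TATCGATA at 72 to 65 bp upstream. The GAANNTTC, 7 to 0 bp before the start base, ends on the start itself. DnaJ-1 stood at position 177 of 7172, between slgA, which encodes proline dehydrogenase, at 89.5 ± 7.11 and CG30383 at 87.7 ± 16.6 (SD, n = 3 each), and these neighbours did not differ beyond their spread.

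**Figure D2:**
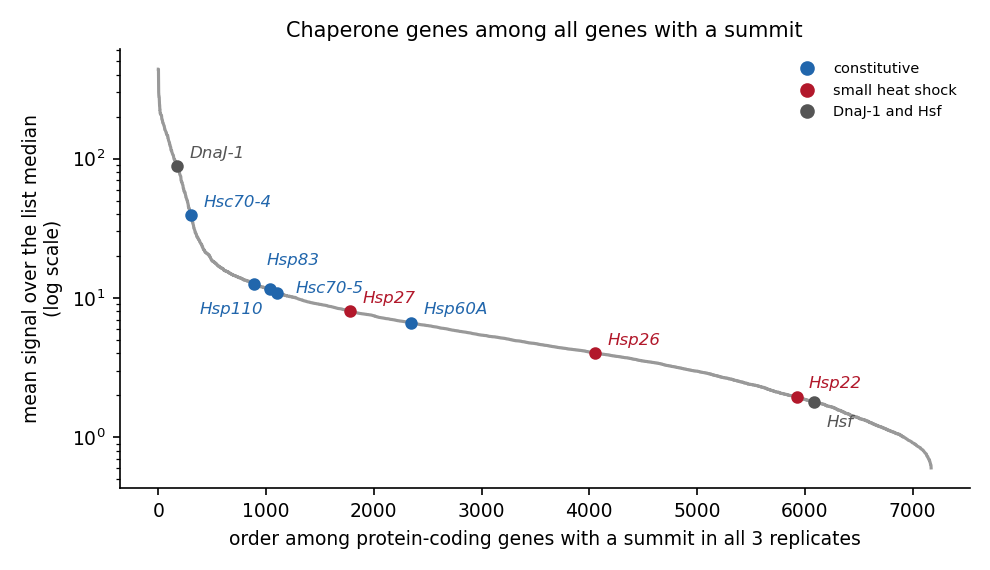
Mean relative signal (log axis) of all 7172 protein-coding genes with a summit in all 3 replicates, in order from the strongest (grey line), with the chaperone genes as points. DnaJ-1 stands at position 177 and Hsc70-4 at 301, while Hsp22 and Hsf stand at 5923 and 6089.

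Hsf encodes the heat shock factor (FBgn0001222, dm6 chr2R:18130303-18134634, minus strand). The gene had a relative signal of 0.639, 3.07 and 1.66 in replicates 1, 2 and 4, or 1.79 ± 1.22 (SD, n = 3). Replicate 1 was below its list's median and replicate 2 was the highest, and the SD of 68.2% of the mean was the largest of the 10 genes. Without replicate 2 the mean was 1.15. The summits did not coincide either, at 42, 422 and 261 bp inside the transcript. The IDR peak lay 429 bp inside, in an intron, with a relative signal of 0.499 at rank 6949 of 7137, where the weakest peak of the list had 0.485. Only replicate 2 had a summit within 100 bp of it, so the IDR call at Hsf was not matched in replicates 1 and 4. Its neighbours in the order of all genes were Ref1, an mRNA export factor gene, and CG5412, both at 1.79 with SDs of 0.430 and 0.662 (n = 3).

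Hsp27 and Hsp26 encode small heat shock proteins, which hold unfolded protein in a soluble state. At Hsp27 (FBgn0001226, dm6 chr3L:9384063-9385694, plus strand) the relative signal was 8.14, 6.61 and 9.32, or 8.02 ± 1.36 (SD, n = 3). At Hsp26 (FBgn0001225, dm6 chr3L:9376418-9377427, minus strand) it was 4.28, 3.49 and 4.29, or 4.02 ± 0.455 (SD, n = 3). Hsp27 was thus 1.90, 1.89 and 2.17 times Hsp26, and the ranges did not overlap. Both had 1 IDR summit between genes, 144 bp upstream of Hsp27 (relative signal 2.07, rank 1291) and 183 bp upstream of Hsp26 (1.07, rank 3291). Their replicate summits lay within 27 and 42 bp of each other. The printed Hsp26 stretch holds TTCNNGAA 26 bp on one side of the summit and GAANNTTC 55 bp on the other, whereas the Hsp27 stretch holds none of the elements in capitals.

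Hsp22 encodes a small heat shock protein of mitochondria (FBgn0001223, dm6 chr3L:9372931-9374964, plus strand) and was the only one of the 10 genes with no IDR summit. Its relative signal was 1.80, 2.29 and 1.75, or 1.95 ± 0.296 (SD, n = 3), not far above the median of relaxed lists that contain background. The strongest summits lay at different places, 463 bp upstream of its second start at 9373997 in replicate 1, and 80 and 499 bp downstream of its first start at 9372931 in replicates 2 and 4. In the pooled list there were 3 summits with relative signals of 1.33, 1.58 and 1.84. Hsp22 shares its first start with CG4456, the gene also known as Hsp67Bb, so summits near that start could not be assigned to one of them. The summit at 9373534 was the strongest in replicate 1 and in the pooled list. It lay within 500 bp of the second Hsp22 start but of no CG4456 start, inside the transcripts of both genes.

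Constitutive cognates had higher signal than small heat shock genes, although the classes overlapped. The class median was 11.6, 12.1 and 11.9 for the 5 constitutive genes in replicates 1, 2 and 4 and 4.28, 3.49 and 4.29 for the 3 small heat shock genes. The ratio of these medians was 2.72, 3.46 and 2.78, or 2.99 ± 0.412 (SD, n = 3 replicates). All 3 replicates thus put the constitutive median higher. Each median is the value of the middle gene of its class. This was Hsp26 in every replicate for the small heat shock class. For the constitutive class it was Hsc70-5 in replicates 1 and 2 and Hsp110 in replicate 4. The SD of the ratio therefore describes the spread of libraries, not of genes. Within the small heat shock class, the means ran from 1.95 at Hsp22 to 8.02 at Hsp27. The single genes did not separate as fully: 4, 4 and 3 of the 5 constitutive genes were above all 3 small heat shock genes in replicates 1, 2 and 4. Hsp60A was below Hsp27 in each replicate, by 1.11, 1.01 and 1.53 times with overlapping ranges, and Hsc70-5 overlapped Hsp27 as well. Genes of a class are not replicates of it and 3 replicates are too few for an exact test to pass, so no p-value is given. When DnaJ-1 was counted with the stress-induced genes, the ratio fell to 2.01, since the median of that class then lay between Hsp26 and Hsp27.

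In order of mean relative signal the genes were DnaJ-1, Hsc70-4, Hsp83, Hsp110, Hsc70-5, Hsp27, Hsp60A, Hsp26, Hsp22 and Hsf. Neighbours in this order whose replicate ranges did not overlap were DnaJ-1 over Hsc70-4, Hsc70-4 over Hsp83, Hsp60A over Hsp26 and Hsp26 over Hsp22. The last of these stood 2.37, 1.53 and 2.44 times apart. The 5 genes from Hsp83 to Hsp60A formed a run in which each neighbour overlapped the next, although Hsp83 and Hsp27 themselves did not overlap (1.46, 1.93 and 1.42 times). Hsp22 and Hsf overlapped, with Hsf higher in replicate 2.

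Summits sat just upstream of the starts, as at genes in general. The strongest IDR summit was upstream of the nearest start in 8 of the 9 genes, or 88.9%, against 89.6% of the 5941 genes with an IDR summit. The median position was 112 bp upstream for the chaperone genes and 86 bp upstream for all such genes, and the quartiles of the latter were 176 and 36 bp upstream. Hsf was the exception, and Hsp83 counted as upstream by its second start alone. The median of 112 bp is the distance of Hsp83 to that start. Its summit lay 135 bp downstream of the first start, so this median rests on the choice of start. The strongest summit lay within 500 bp of another gene's coding start in 2 of the 9, Hsc70-4 and Hsc70-5, a share of 22.2% against 58.9% of all genes with an IDR summit.

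Inverted GAA pairs of the kind that heat shock factor binds were found near several summits. Within 100 bp of the strongest IDR summit, GAANNTTC was present at 5 of the 9 genes (Hsc70-4, Hsp83, Hsp110, DnaJ-1 and Hsp26), against 5.75% of the 5166 IDR summits at promoters. The second summit of Hsc70-5 had one too. TTCNNGAA was present at Hsp26 alone, against 5.56%. With the whole element required to lie within 50 bp of the summit, 1 of the 9 had a GAANNTTC, Hsc70-4, against 2.56%, and those of Hsp83 and Hsp110 crossed that limit. In the 250 bp before to 50 bp after the canonical start, 4 of the 10 genes had GAANNTTC, against 9.39% of 13944 such windows. These were Hsc70-4, Hsp110, DnaJ-1 and Hsp26. The match at Hsp83, 68 to 61 bp before its second start, fell outside the window of its canonical start. Matches occurred in both classes. The constitutive Hsc70-4, Hsp83 and Hsp110, but not Hsc70-5 or Hsp60A, had GAANNTTC near the strongest summit. Of the stress-induced genes, Hsp26 had both spacings, Hsp27 neither near its summit or in the promoter window, and Hsp22 neither in that window. Bases farther upstream of Hsp27, and those around the second Hsp22 start at 9373997, were not searched, so elements there would have been missed. A match describes the letters of the window, not what was bound in these embryos.

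Of the other elements, TATAAA was the most common and the rest were near 0 to 2 of the strongest summits. TATCGATA was within 100 bp of the strongest summit at 2 of the 9, DnaJ-1 and Hsp110, against 16.3% of promoter summits, and at Hsp83 when its weaker summit was counted. All 3 matches were within 16 bp of an IDR summit. The replicates' strongest summits stood 2 to 15 bp from the element at DnaJ-1 and 10 to 15 bp at Hsp110, but 278, 219 and 321 bp from it at Hsp83. GAGAG, the site of GAGA factor, was near 1 summit, that of Hsp26, against 16.6%. TATAAA was within 100 bp at 5 of the 9, against 32.0%, and on the sense strand of the promoter window at 8 of the 10 genes, against 32.2%. GCAACNCT was near none of the 9, against 8.77%, and GGTCACAC near none of the strongest summits, against 9.79%. All motifs were searched on both strands except TATAAA in the promoter window, and a palindrome such as TATCGATA was counted once.

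Hsp22, Hsp26 and Hsp27 belong to a cluster of 8 small heat shock genes that spans 14.2 kb on 3L, from 9371511 to 9385694. Of these 8 genes, 2 had an IDR summit, Hsp26 and Hsp27, and no other IDR summit fell inside the span. Hsp23, Hsp67Ba and CG4461, which lie among them, had no summit in any list. Hsp67Bc reached 1.33 in the pooled list and 0.752 in replicate 4 alone, and CG4456 reached 2.29 and 1.75 in replicates 2 and 4. Of the pooled summits plotted beyond the cluster, 2 were higher than any inside it, 6.30 and 10.35 kb from the Hsp26 start. The first, at 14.0, stood near the start of Fdx1, a ferredoxin gene. The second, at 249.1, stood between the starts of Klp67A, a kinesin gene, and the divergent gene CG4452. It was within 500 bp of both, so it cannot be assigned to one of them. The other 4 lay between 0.869 and 2.10, below Hsp26 and Hsp27. These flanking genes all lie on the same side of the cluster and were named after their values were seen. On the other side, the plotted stretch ends inside CG4080. The strongest summit at a start of CG4080 lay beyond the plot and had 11.2, 12.3 and 10.7 in replicates 1, 2 and 4, above Hsp27 each time.

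**Figure D3:**
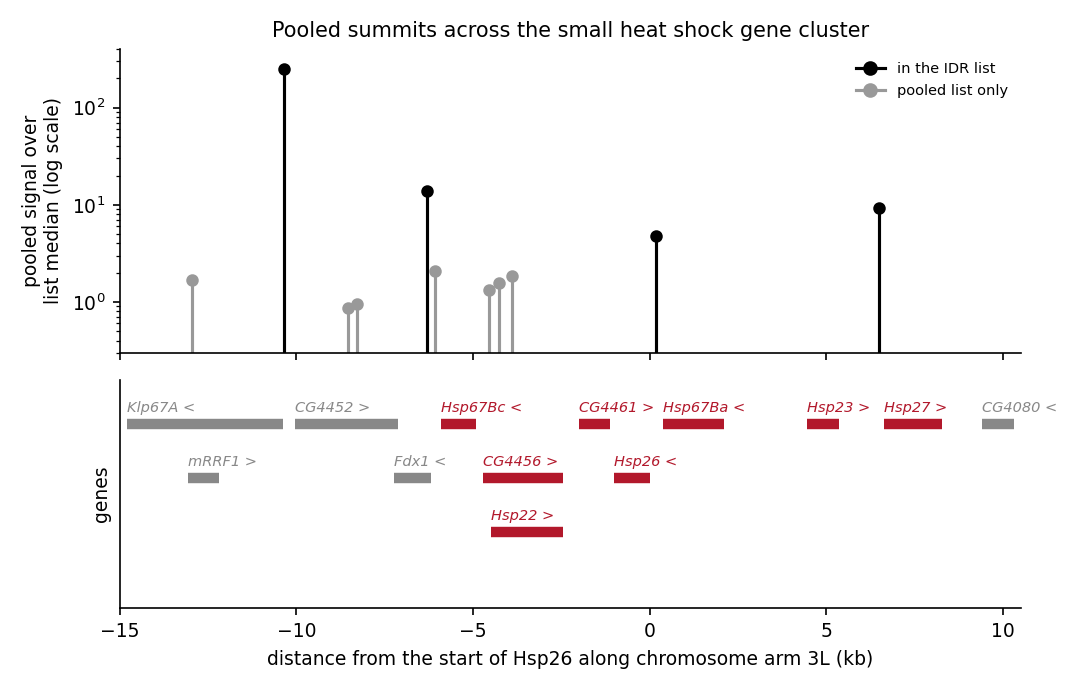
Top, pooled relative signal (log axis) of each pooled summit against distance in kb from the Hsp26 start, black where the summit is in the IDR list; bottom, protein-coding genes with their direction, small heat shock genes in red. Inside the cluster only the summits at Hsp26 (4.75) and Hsp27 (9.23) are black, and the highest summit, 249.1, stands between the starts of Klp67A and CG4452 outside it.

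Most lists of other chaperone genes and stress regulators had CG2116 peaks at the majority of their genes, and the further small heat shock and Hsp70 genes listed had few or none. The Hsp70 list leaves out the cognates Hsc70-3, Hsc70-4 and Hsc70-5, and 7 of its 9 genes are heat-inducible copies, so it does not stand for the family. Of 57 further genes from 7 lists, 33 (57.9%) had an IDR summit, against 42.6% of all genes. All 4 further mitochondrial chaperones, 9 of 10 Hsp90 cochaperones and exchange factors, 8 of 10 J-domain genes, 3 of 4 stress regulators and 8 of 11 chaperonins had one. The small heat shock list had 1 of 9 and the Hsp70 list 0 of 9. The summit was also within 500 bp of another coding start for 20 of the 33 (60.6%), and 13 remained without these.

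**Figure D4:**
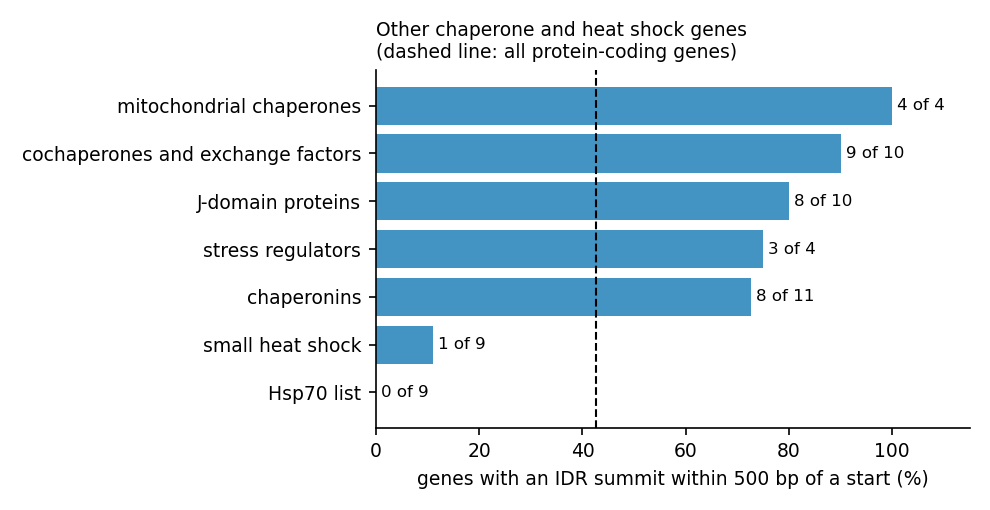
Percentage of genes in each list, excluding the 10 described above, with an IDR summit within 500 bp of a start (bars start at 0; counts beside them); the dashed line is the 42.6% of all protein-coding genes. The small heat shock list (1 of 9) and the Hsp70 list (0 of 9) are below the line and the other 5 lists above it.

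In the Hsp70 list, Hsp68, a heat-inducible Hsp70, had weak summits of 0.613, 0.965 and 1.85 in replicates 1, 2 and 4 (1.14 ± 0.640, SD, n = 3). Hsc70-1 had 0.713 and Hsp70Ab 0.627 in replicate 1 and none in replicates 2 and 4, and Hsc70-1 had 0.679 in the pooled list. Hsc70-2, Hsp70Aa, Hsp70Ba, Hsp70Bb, Hsp70Bbb and Hsp70Bc had no summit in any list. The Hsp70 copies are near identical, and how reads with several matches were handled is not stated, so their lack of peaks is uncertain. The cognate Hsc70-3, the Hsp70 of the endoplasmic reticulum, was in no list and was looked up after its value was known. It had 34.0, 30.2 and 37.4 (mean 33.9), a range that overlapped that of Hsc70-4.

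Among the small heat shock genes outside the cluster, CG14207 had an IDR summit 52 bp upstream and a relative signal of 8.98, 8.09 and 10.6 (9.24 ± 1.30, SD, n = 3), which overlapped Hsp27. CG7409 and l(2)efl had pooled summits of 0.690 and 0.577 and no IDR summit, and CG13133 had none. The other small heat shock genes were thus at or below the level of Hsp22.

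The listed mitochondrial partners of Hsc70-5 and Hsp60A all had an IDR summit near a start. Trap1, the mitochondrial Hsp90, had 127.4, 146.3 and 96.7 (123.5 ± 25.0, SD, n = 3), above DnaJ-1 in every replicate although the ranges overlapped, and its summit lay within 500 bp of the start of Bap170, a chromatin remodelling subunit. CG7394 followed at 13.8 ± 2.19 and blp, a subunit of the import motor, at 7.77 ± 1.37 (SD, n = 3 each). Their summits also lay within 500 bp of the starts of Mob2 and CG5478, so these peaks cannot be assigned to one gene. CG11267, the Hsp10 lid of Hsp60A, stood at 3.78 ± 0.987 with no other coding start nearby, below Hsp60A itself with no overlap of the replicates.

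All 8 subunits of the cytosolic chaperonin CCT had an IDR summit, led by CCT6 at 24.3 ± 2.94, CCT7 at 20.9 ± 3.28, CCT1 at 12.6 ± 1.21 and CCT2 at 9.43 ± 2.31 (SD, n = 3 each). Except for CCT2, the summit of each subunit also lay within 500 bp of another coding start. The 3 paralogues Hsp60B, Hsp60C and Hsp60D, had no summit in any list, unlike Hsp60A. Among J-domain genes, Droj2 reached 27.4 ± 3.04, CG2887 18.9 ± 5.97, DnaJ-60 14.2 ± 1.74 and mrj 8.15 ± 1.38, all below DnaJ-1. Of these 4 summits, that of mrj alone had no other coding start within 500 bp.

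Among cochaperones, Stip1, which links Hsp70 to Hsp90, reached 21.4 ± 1.81, Sgt 9.68 ± 2.33, the kinase adaptor Cdc37 8.68 ± 0.594 and the mitochondrial exchange factor Roe1 6.40 ± 0.648 (SD, n = 3 each). Roe1 shared its summit with no other coding start, whereas those of Stip1, Sgt and Cdc37 lay near U2af38, BicD, and alpha-Spec with dlt. Of the stress regulators, the remodeller gene brm stood at 9.59 ± 2.64, the GAGA factor gene Trl at 4.85 ± 0.949 and CG5446, a heat shock factor binding protein, at 4.35 ± 0.731, each above Hsf at 1.79 with no overlap of the replicates. The summits of brm and CG5446 lay near the coding starts of Arl1 and Trm1 as well, and that of Trl near no other.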

How the data were processed

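The authors deposited peak lists on the genome build dm6: 1 list for each of the 3 libraries, 1 relaxed list called on pooled libraries and 1 IDR list, 5 in all; lists on dm3 were not used here. Per the deposited description of the files, peaks were called both per replicate and on pooled replicates. Neither the aligner, the caller, the IDR threshold nor the treatment of reads with several matches is stated in the labels and files read here. The signal of a peak, as deposited, is an enrichment given by the calling software, on a scale that varies with software and depth. The deposited −log10 q and the deposited summit offset were read for each peak, and q entered no test. Depth per library is unknown, and a control library was not analysed here. Nothing in the labels beyond the replicate numbers describes separate collections, so the spread may be in part technical. Chromatin was sheared to 200 to 800 bp, per the labels.

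Here, the strongest summit within 500 bp of any transcription start (Ensembl release 115) was taken per gene and list, and its signal was divided by the list median. Motifs were searched within 100 bp of the summit in the dm6 sequence. Coordinates are 1-based, and distances count the start base as 0. The search was tested on simulated data. Python 3.11.15, numpy 2.4.6, pandas 2.3.3 and matplotlib 3.10.9 were used. Members, lists and classes were chosen with earlier results of these data known. The genes named are all 10 members, the 4 strongest bound genes of each other list, every gene of the small heat shock and Hsp70 lists, genes sharing a start region with a member, and the neighbours of the strongest and weakest member in the order of all genes. Genes that share a start region with a named gene, the Hsp60A paralogues, Hsc70-3 and the genes flanking the small heat shock cluster were named in addition, after their values were seen. Of 59 other symbols, 2 were not matched to the annotation.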

Additional observations from a re-analysis of the deposited data

How the results depend on the processing

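Other windows around the start (200 or 1000 bp), the canonical start alone, summits without a stronger neighbour within 400 bp and IDR peaks above the list median left 8 to 9 chaperone genes with an IDR summit, against 9. A summit within 100 bp in each replicate, a condition added after seeing the data, left 7. Between 8 and 10 had a summit in every replicate. Division by the median over matched summits lowered the class medians from 11.5 to 2.79 (constitutive) and from 4.02 to 0.979 (small heat shock), a change of scale that left the mean of the ratios per replicate at 2.99. Leaving out each replicate gave constitutive medians of 11.4 to 11.9, small heat shock medians of 3.89 to 4.28 and ratios of 2.75 to 3.12. The ratio was 2.01 with DnaJ-1 among the stress-induced genes and 4.86 when computed from ranks. Within 50 bp of the summit, the genes with GAANNTTC went from 5 to 1, with GAGAG from 1 to 0 and with TATAAA from 5 to 1, since fewer bases were searched. Without genes whose summit lies near another coding start, chosen after seeing the data, 13 of the 33 bound genes of the other lists, stress regulators included, were left. With the summit nearest to a start, Hsp60A went from 6.65 to 4.54 and Hsf from 1.79 to 1.09, and Hsf was also 1.09 with the 200 bp window and 1.15 without replicate 2, all within its SD of 1.22. No paired analysis was possible because there is a single group. Unknown depth limits what a missing peak can show.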
